A study of Mus musculus with 8 samples.

Results

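The factors that specify and mark early primordial germ cells (PGCs) were followed in cells of a testis-in-a-dish model from mouse. The set was chosen by name and holds 10 of the 46078 genes in the deposited counts: Prdm1, Prdm14, Tfap2c, Dppa3, Nanos3, Dnd1, Ifitm3, Ifitm1, Alpl and Fut4. RNA-sequencing libraries of 4 conditions, with 2 libraries in each, were compared. tcESCs are male (XY) C57BL/6 embryonic stem cells that carry tesco-cfp, a fluorescent reporter driven by a testis enhancer of Sox9. tc;Sf1ESCs are a single G418-selected clone of tcESCs in which a transgene expresses Sf1 (the gene Nr5a1) constitutively, and both lines were kept in N2B27 medium with 2i and LIF. Sertoli cell-like cells (SCLCs), which the labels call testicular somatic cell-like cells, also carry tesco-cfp and the Sf1 transgene, since they were differentiated from tc;Sf1ESCs and sorted as CFP-positive cells at day 12. The study differentiated them with CHIR99021 (a WNT activator) and TTNPB (a retinoic acid receptor agonist), then with CHIR99021, BMP7 and FGF9. The testicular organoid-derived PGC-like cells (tod-PGCLCs) come from another C57BL/6 XY line, in which Prdm1-gfp reports Prdm1, and their labelled genotype holds neither tesco-cfp nor the Sf1 transgene. They were made by turning these cells into epiblast-like cells, mixing them with tc;Sf1ESC-derived testicular cells and sorting GFP-positive cells at day 6 of the organoid. The organoid medium of the study held CHIR99021, which is also part of 2i. Neither the Prdm1-gfp ESCs nor their epiblast-like cells are among the 8 libraries, so the line and the cell state cannot be told apart in any tod-PGCLC comparison.

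In the mouse embryo, BMP signals from neighbouring tissues act on epiblast cells that have become competent through WNT signalling, and a few of these cells switch on Prdm1, Prdm14 and Tfap2c. These transcription factors together turn off the somatic programme, restore genes of pluripotency and open the germ cell programme, after which Dppa3, Nanos3 and Dnd1 come on. Several of the same genes, among them Prdm14, Tfap2c, Dppa3 and Alpl, are also active in naive ESCs, so their transcripts alone do not mark a germ cell.

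The 8 libraries hold 25411033 to 30680191 counts on genes, at which 3 counts equal 0.0975 to 0.118 normalized CPM (CPM, counts scaled to a common library size and corrected by TMM). This limit covers counting error only. The SD of the log2 ratio between replicates over 16707 tested genes was 0.287 to 0.363 in tcESCs, tc;Sf1ESCs and tod-PGCLCs and 0.50 in SCLCs, the least alike pair. Nr5a1 stood at 2.02 and 1.10 normalized CPM in tc;Sf1ESCs against 0.0394 and 0 in tcESCs. Markers of primitive and visceral endoderm summed to 2882 and 4906 normalized CPM in the SCLC libraries and to 17.5 to 51.3 elsewhere, with all 12 above 3 counts in each SCLC library. The 12 Sertoli cell markers summed to 572 and 579 in SCLCs, of which Gata4 gave 432 and 451. Of the 10 that were tested, 8 were called higher and 1 lower in SCLCs than in tc;Sf1ESCs, beside 24.2% and 18.0% of all genes. Relative to tcESCs, 7 were called higher and 0 lower, beside 24.4% and 18.2%. Gata4 and Sox9 were called higher in both comparisons. Dhh had 5 and 1 counts in SCLCs and 11 and 24 in tc;Sf1ESCs. How much of the Gata4 level came from cells with the endoderm markers was not tested. Amh, a defining Sertoli cell product, stood at 0.392 and 0.790 in SCLCs and at 0.585 to 0.878 in the ESC libraries, and Fshr was at 0 in both SCLC libraries. The labels describe the replicates as biological duplicates without saying what was separate, so the p-values measure the spread between these libraries.

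All 10 factors passed the filter of a mean count above 10 and were tested, in 60 tests over 6 comparisons. In a comparison, the libraries of its conditions did not overlap for 76.3% to 86.6% of all tested genes, so separate libraries are common. A gene was called when its fold change exceeded 2 and its p-value from the edgeR quasi-likelihood fit, after Benjamini-Hochberg adjustment across every gene tested, was under 0.05. The tod-PGCLCs had the most factors called higher. Against tcESCs, 7 of the 10 were called higher and 0 lower, where 18.1% of all genes were called higher and 11.2% lower (29.4% in all). The 7 include Prdm1, whose reporter was the sort criterion, and Fut4, whose enzyme can build the SSEA1 epitope that the gate may have used, so their part in these counts and medians may not be independent of how the cells were collected. Fut4, with 2 and 3 counts in tcESCs, passed the count filter only through SCLCs and tod-PGCLCs. Its calls against the ESC lines are given as a description. Against tc;Sf1ESCs, 6 were called higher and 1, Nanos3, lower (19.4% and 13.3% of all genes, 32.7% in all). The Nanos3 call was lost when tested against a 2-fold change (adjusted p = 0.0555, edgeR's glmTreat). Against SCLCs, 7 were called higher and 0 lower (18.5% and 19.5%, 38.0% in all). The median log2 fold change of the 10 factors in these comparisons was 1.86, 1.33 and 1.98, beside 0.034, 0.012 and 0.012 for all tested genes. The 3 comparisons share the tod-PGCLC libraries. In bulk RNA, fewer cells of a type and less RNA in each cell cannot be told apart.

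In SCLCs, more factors were called lower than higher against tc;Sf1ESCs, though Prdm1, Ifitm3 and Ifitm1 lost their calls when tested against a 2-fold change. There, 2 factors were called higher (Ifitm3 and Fut4) and 5 lower (Prdm1, Prdm14, Nanos3, Ifitm1 and Alpl), where 24.2% of all genes were called higher and 18.0% lower (42.2% in all), with a median of -0.82 for the factors and 0.019 for all genes. Against tcESCs, 1 was called higher (Fut4) and 2 lower (Prdm14 and Alpl), where 24.4% and 18.2% of all genes were called (42.6% in all), with a median of 0.14 for the factors and 0.048 for all genes. Fut4, with 1 to 3 counts in the ESC libraries, passed the count filter only through SCLCs and tod-PGCLCs. Its calls in both comparisons are given as a description. Without SCLC replicate 2, 5 factors were called against tcESCs, 3 higher and 2 lower, as Dppa3 (1.02 on the log2 scale) and Ifitm3 (1.28) were then called higher too. Without SCLC replicate 1, Ifitm1 was called lower as well, at -1.63 in place of -0.56. Between the ESC lines, Prdm1 and Nanos3 were called higher in tc;Sf1ESCs and 0 factors lower, beside 6.13% and 5.85% of all genes (12.0% in all).

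**Figure D1:**
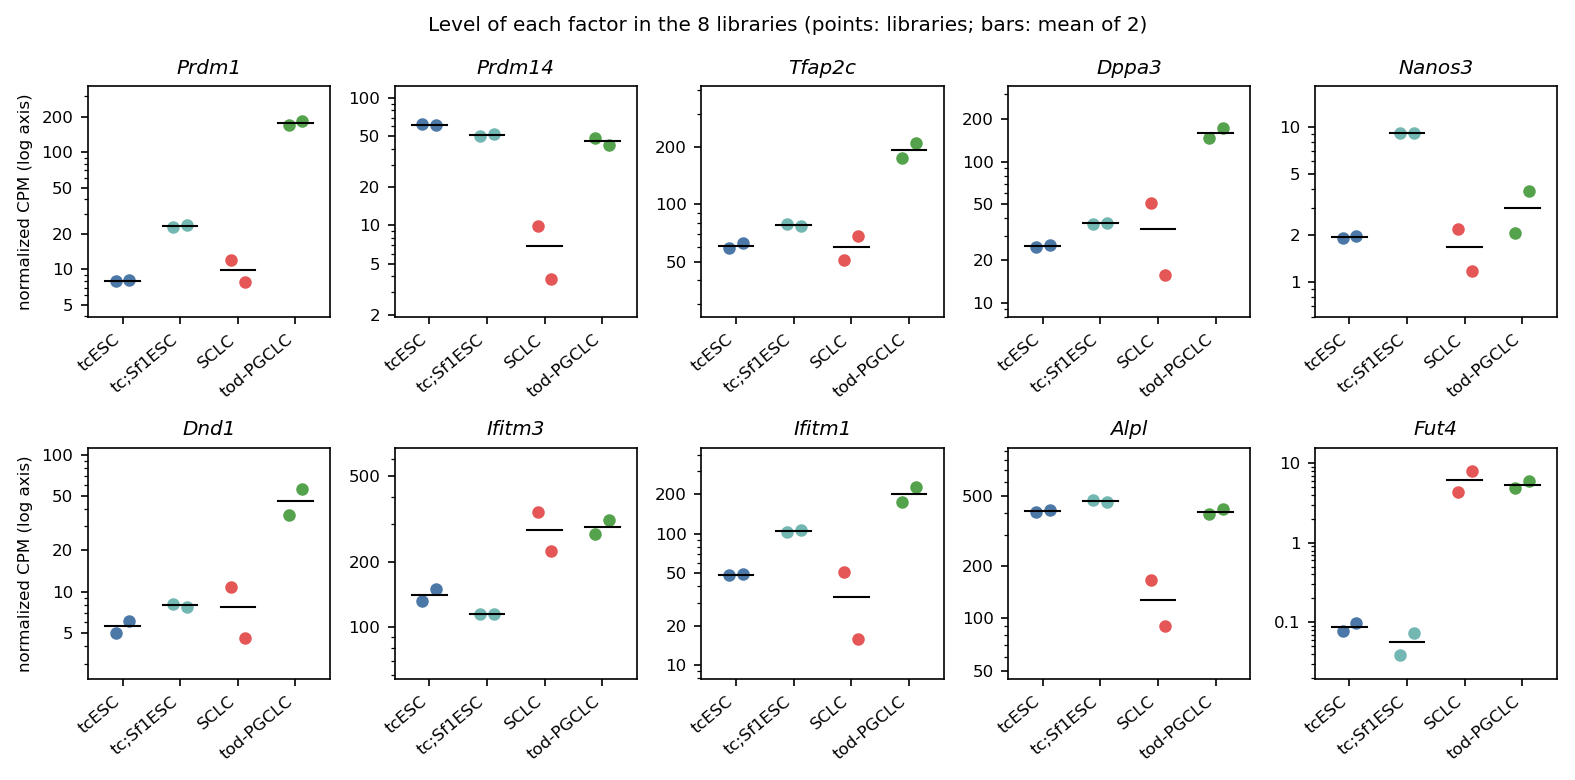
Level of each factor in normalized CPM (log axis, a separate scale for each gene) by condition. Each point is a library and each bar the mean of 2 libraries. Prdm1, Tfap2c, Dppa3, Dnd1 and Ifitm1 have both tod-PGCLC points above all others, Prdm14 and Alpl have both SCLC points below all others, and Fut4 has its ESC points at or under 0.0975. Between any pair of conditions, 76.3% to 86.6% of all tested genes had libraries that did not overlap.

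Prdm1 (Blimp1), the repressor that starts PGC fate, had the largest fold change in tod-PGCLCs over tcESCs among the 9 factors with more than 3 counts in each tcESC library. It was at 7.93 and 8.13 normalized CPM in tcESCs, 22.9 and 24.2 in tc;Sf1ESCs, 12.1 and 7.79 in SCLCs, and 170 and 184 in tod-PGCLCs. The tod-PGCLC libraries stood far above the other 6, and the tcESC and SCLC libraries overlapped. The fold was 22.0 against tcESCs (log2 fold change 4.46, SE 0.17, adjusted p = 3.78e-07, edgeR), 7.51 against tc;Sf1ESCs (adjusted p = 1.36e-06, edgeR) and 17.8 against SCLCs (adjusted p = 2.06e-07, edgeR). These cells were sorted on a Prdm1 reporter, so a high Prdm1 level follows from how they were collected and is given as a description. Independently of that sort, tc;Sf1ESCs had 2.93-fold more Prdm1 than their parental tcESCs (log2 fold change 1.55, SE 0.17, adjusted p = 0.000274, edgeR), and SCLCs had 2.38-fold less than tc;Sf1ESCs (log2 fold change -1.25, SE 0.17, adjusted p = 0.000132, edgeR). Without SCLC replicate 2 the latter log2 fold change was -0.95, under the 2-fold limit.

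The 250 bases before the start that RefSeq gives for Prdm1 (GRCm38.p6, chr10:44458749-44458998, minus strand), the gene read out by the sort, are printed with the 5′ end first. In GENCODE M21 the gene reaches from 44437177 to 44528501 on the minus strand, so the window lies inside it. The window overlaps no exon of GENCODE M21 and holds 15 CpG dinucleotides, where the median over 32851 promoter windows of 250 bases is 6.
Prdm1: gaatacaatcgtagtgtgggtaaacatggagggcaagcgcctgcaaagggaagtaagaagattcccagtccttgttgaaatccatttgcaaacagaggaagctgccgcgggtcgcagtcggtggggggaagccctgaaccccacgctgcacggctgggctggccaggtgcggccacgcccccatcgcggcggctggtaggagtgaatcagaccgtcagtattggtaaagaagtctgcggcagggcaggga
Windows of 6 of the 10 factors were in the RefSeq table: Prdm1, Nanos3, Ifitm3, Ifitm1, Alpl and Fut4. They were searched on both strands for GCCNNNGGC, the palindrome that TFAP2 factors bind, which occurs in 13.7% of all windows. It was found in the windows of Nanos3, Alpl and Fut4, and the Fut4 window lies within an exon of Fut4 over all its 250 bases in GENCODE M21. A match is a run of letters and not a measured binding site.

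Prdm14, which works beside Prdm1 in PGCs and keeps ESCs naive, did not follow it. It was at 61.8 and 61.6 normalized CPM in tcESCs, 50.5 and 51.6 in tc;Sf1ESCs, 9.96 and 3.81 in SCLCs, and 48.4 and 42.9 in tod-PGCLCs. Both SCLC libraries lay below the other 6, while the ESC lines and tod-PGCLCs lay close together. Against tcESCs the tod-PGCLC difference was -0.43 on the log2 scale (95% interval -1.05 to 0.18, adjusted p = 0.193, edgeR), and against tc;Sf1ESCs -0.16 (-0.78 to 0.46, adjusted p = 0.624, edgeR). SCLCs had 7.47-fold less than tc;Sf1ESCs (log2 fold change -2.90, SE 0.31, adjusted p = 3.45e-05, edgeR) and tod-PGCLCs 6.69-fold more than SCLCs (adjusted p = 6.03e-05, edgeR). Leaving out either SCLC library moved the SCLC difference from tc;Sf1ESCs between -3.73 (without replicate 1) and -2.35 (without replicate 2), and the tod-PGCLC difference from SCLCs, 2.74 with all libraries, between 3.58 and 2.19. The SCLC difference from tcESCs was -3.17 with all libraries and -4.01 without SCLC replicate 1.

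Tfap2c, which encodes the AP2-gamma transcription factor that acts downstream of Prdm1, was at 58.7 and 62.3 normalized CPM in tcESCs, 78.8 and 76.9 in tc;Sf1ESCs, 50.9 and 68.4 in SCLCs, and 176 and 210 in tod-PGCLCs. The tod-PGCLC libraries did not overlap any other, and the libraries of the other 3 conditions ran from 50.9 to 78.8. The fold in tod-PGCLCs was 3.19 against tcESCs (log2 fold change 1.67, SE 0.14, adjusted p = 1.48e-05, edgeR), 2.48 against tc;Sf1ESCs (adjusted p = 4.49e-05, edgeR) and 3.23 against SCLCs (adjusted p = 7.61e-06, edgeR). SCLCs differed from tc;Sf1ESCs by -0.38 on the log2 scale (SE 0.14, adjusted p = 0.0302, edgeR), which is within the 2-fold limit, and from tcESCs by -0.02 (95% interval -0.33 to 0.29).

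Dppa3 (Stella), a maternal-effect protein that guards DNA methylation and comes on as PGCs form, was at 24.7 and 25.8 normalized CPM in tcESCs and 36.4 and 36.9 in tc;Sf1ESCs. SCLC replicate 1 had 51.0 and replicate 2 had 15.8, so that 1 SCLC library lay above both ESC lines and the other below them. The tod-PGCLC libraries, at 147 and 172, were above all others. The fold was 6.31 against tcESCs (log2 fold change 2.66, SE 0.41, adjusted p = 0.000558, edgeR), 4.36 against tc;Sf1ESCs (adjusted p = 0.00153, edgeR) and 4.79 against SCLCs (adjusted p = 0.000977, edgeR). The log2 fold change against SCLCs was 2.26, and it was 3.33 without SCLC replicate 1 and 1.64 without replicate 2. Chromosome 6, which carries Dppa3, had a median log2 fold change of -0.29 over its genes in tod-PGCLCs against tcESCs, beside 0.034 for all genes. The part of this shift in the Dppa3 difference was not tested. No call was made for Dppa3 between SCLCs and tc;Sf1ESCs (-0.14, 95% interval -1.06 to 0.78, adjusted p = 0.772, edgeR), and this rests on the unlike SCLC pair. Without SCLC replicate 1 Dppa3 was called lower (-1.20), and without replicate 2 it was called higher against tcESCs (1.02).

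Nanos3, an RNA-binding protein that keeps migrating PGCs alive, stood at 1.93 and 1.98 normalized CPM in tcESCs (49 and 61 counts), 9.17 and 9.19 in tc;Sf1ESCs (236 and 251 counts), 2.20 and 1.19 in SCLCs (56 and 33 counts), and 2.07 and 3.90 in tod-PGCLCs (60 and 109 counts). The tc;Sf1ESC libraries stood above all others, and the SCLC range met those of tcESCs and tod-PGCLCs. tc;Sf1ESCs exceeded tcESCs 4.68-fold (log2 fold change 2.23, SE 0.34, adjusted p = 0.00136, edgeR), tod-PGCLCs 3.08-fold (adjusted p = 0.00202, edgeR) and SCLCs 5.45-fold (adjusted p = 0.000193, edgeR). Nanos3 lies on chromosome 8, whose genes had a median log2 fold change of 0.48 in tc;Sf1ESCs against tcESCs and -0.54 in tod-PGCLCs against tc;Sf1ESCs, beside 0 and 0.012 for all genes. In SCLCs against tc;Sf1ESCs the chromosome 8 median was 0.034, and Nanos3 differed by -2.45 (SE 0.34). The part of the chromosome shift in the Nanos3 differences was not tested. In tod-PGCLCs the difference from tcESCs was 0.60 (95% interval -0.19 to 1.40, adjusted p = 0.165, edgeR) and from SCLCs 0.82 (adjusted p = 0.0673, edgeR). The tod-PGCLC to SCLC difference was called without SCLC replicate 1 (1.32) or without tod-PGCLC replicate 1 (1.22).

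The window before the RefSeq start of Nanos3 (GRCm38.p6, chr8:84176553-84176802, minus strand) is shown because it holds the TFAP2 palindrome. The capitals mark the palindrome, which starts 221 bases before that RefSeq start. In GENCODE M21 the gene reaches from 84173731 to 84185217 on the minus strand, so the window lies inside it. The window holds 3 CpG dinucleotides and overlaps no exon of GENCODE M21.
Nanos3: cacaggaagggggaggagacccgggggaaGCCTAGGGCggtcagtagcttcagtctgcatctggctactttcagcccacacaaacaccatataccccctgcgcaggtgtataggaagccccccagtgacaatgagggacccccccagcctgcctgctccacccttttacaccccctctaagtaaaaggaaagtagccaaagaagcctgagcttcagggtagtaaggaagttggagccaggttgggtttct

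Dnd1, which protects germ cell transcripts from microRNAs and partners NANOS proteins, was at 5.05 and 6.14 normalized CPM in tcESCs, 8.16 and 7.80 in tc;Sf1ESCs, 10.8 and 4.63 in SCLCs, and 36.2 and 56.3 in tod-PGCLCs. Both tod-PGCLC libraries exceeded the other 6, and the SCLC libraries spanned both ESC lines. The fold was 8.24 against tcESCs (log2 fold change 3.04, SE 0.36, adjusted p = 0.000114, edgeR), 5.80 against tc;Sf1ESCs (adjusted p = 0.000235, edgeR) and 6.01 against SCLCs (adjusted p = 0.000175, edgeR). Without SCLC replicate 1 the log2 fold change against SCLCs was 3.31 in place of 2.59. Exons of Dnd1 and of Wdr55 on the opposite strand share 140 bases. The libraries were strand-specific, and how strand was set in counting is not given in the sources used here, so reads from the shared bases could be divided between the genes. The RNA-binding factors therefore parted in tod-PGCLCs, with Dnd1 called higher than in each other condition and Nanos3 in 0 of the 3 comparisons.

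Ifitm3 (Fragilis) and Ifitm1 are neighbouring genes of interferon-induced transmembrane proteins on chromosome 7 that are both known from early PGCs, and they had different patterns. Ifitm3 was at 133 and 150 normalized CPM in tcESCs, 115 and 115 in tc;Sf1ESCs, 340 and 225 in SCLCs, and 271 and 313 in tod-PGCLCs. All SCLC and tod-PGCLC libraries exceeded all ESC libraries, and the SCLC and tod-PGCLC ranges overlapped (log2 difference 0.05, 95% interval -0.33 to 0.43, adjusted p = 0.807, edgeR). In tod-PGCLCs it rose 2.07-fold over tcESCs (log2 fold change 1.05, SE 0.17, adjusted p = 0.000688, edgeR) and 2.53-fold over tc;Sf1ESCs (adjusted p = 0.000151, edgeR). The value against tcESCs sits at the 2-fold limit and was 0.92 without tcESC replicate 1 and 0.95 without tod-PGCLC replicate 2. In SCLCs it rose 2.45-fold over tc;Sf1ESCs (adjusted p = 0.000125, edgeR), while the difference from tcESCs was 0.999 (SE 0.17, adjusted p = 0.000611, edgeR), just inside the limit. Without SCLC replicate 1 the difference from tc;Sf1ESCs was 0.97.

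Ifitm1 was at 48.8 and 49.2 normalized CPM in tcESCs, 103 and 107 in tc;Sf1ESCs, 51.0 and 15.7 in SCLCs, and 176 and 228 in tod-PGCLCs. The tod-PGCLC libraries were the highest and the tc;Sf1ESC libraries came next, above both tcESC and both SCLC libraries. It rose 4.13-fold in tod-PGCLCs over tcESCs (log2 fold change 2.04, SE 0.40, adjusted p = 0.00212, edgeR) and 6.09-fold over SCLCs (adjusted p = 0.000481, edgeR). The log2 fold change over SCLCs was 2.61, with 3.68 without SCLC replicate 1 and 1.98 without replicate 2. Against tc;Sf1ESCs the log2 difference of 0.94 missed the call (SE 0.39, adjusted p = 0.0583, edgeR), as did the 1.10 between tc;Sf1ESCs and tcESCs (SE 0.40, adjusted p = 0.0632, edgeR). SCLCs had 3.16-fold less Ifitm1 than tc;Sf1ESCs (log2 fold change -1.66, SE 0.41, adjusted p = 0.00523, edgeR), with -2.73 and -1.03 when replicate 1 or replicate 2 of the SCLCs was left out.

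Alpl and Fut4 encode enzymes that lie behind the classical stains for PGCs. Alpl makes tissue-nonspecific alkaline phosphatase and was at 403 and 415 normalized CPM in tcESCs, 474 and 462 in tc;Sf1ESCs, 166 and 90.1 in SCLCs, and 394 and 422 in tod-PGCLCs. The tcESC and tod-PGCLC libraries overlapped, and the SCLC libraries lay below the other 6. The tod-PGCLC difference from tcESCs was -0.003 on the log2 scale (95% interval -0.50 to 0.49, adjusted p = 0.992, edgeR). SCLCs had 3.66-fold less than tc;Sf1ESCs (log2 fold change -1.87, SE 0.22, adjusted p = 6.85e-05, edgeR) and 3.20-fold less than tcESCs (adjusted p = 0.000134, edgeR), and tod-PGCLCs had 3.19-fold more than SCLCs (adjusted p = 0.000162, edgeR).

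The window before the outermost RefSeq start of Alpl (GRCm38.p6, chr4:137796385-137796634, minus strand) is shown for its paired TFAP2 palindromes, both in capitals, which begin 40 and 20 bases before the start. It holds 20 CpG dinucleotides and overlaps no exon of GENCODE M21. Alpl has a further RefSeq start, whose window has 4 CpG dinucleotides and 0 of the palindromes.
Alpl: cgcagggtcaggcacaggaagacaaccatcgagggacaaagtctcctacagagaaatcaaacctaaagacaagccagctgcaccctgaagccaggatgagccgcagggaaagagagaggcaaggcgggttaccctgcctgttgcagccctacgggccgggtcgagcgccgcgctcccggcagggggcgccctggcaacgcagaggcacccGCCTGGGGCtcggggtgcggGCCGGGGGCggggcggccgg

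Fut4 encodes a fucosyltransferase that can build the SSEA1 sugar epitope of PGCs and ESCs. It had 2 and 3 counts in tcESCs, 1 and 2 in tc;Sf1ESCs, 111 and 220 in SCLCs, and 140 and 166 in tod-PGCLCs. In normalized CPM this was 0.0389 to 0.0975 over the 4 ESC libraries, 4.35 and 7.90 in SCLCs, and 4.83 and 5.93 in tod-PGCLCs. The SCLC and tod-PGCLC ranges overlapped (log2 difference of tod-PGCLCs from SCLCs -0.19, 95% interval -0.84 to 0.46, adjusted p = 0.572, edgeR), and both stood far above the ESC libraries. As the ESC libraries held 1 to 3 counts, the differences are given as ratios of summed counts with exact intervals for counting error. The ratio to tcESCs was 60.3 in tod-PGCLCs (95% interval 25.6 to 187) and 69.6 in SCLCs (29.5 to 216), and the ratio to tc;Sf1ESCs was 95 (32.2 to 463) and 110 (37.2 to 535). No fold is given between the ESC lines, where all 4 libraries were at or under 3 counts.

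Fut9, another enzyme of the SSEA1 epitope, behaved differently. It was at 64.6 and 59.5 normalized CPM in tcESCs, 110 and 117 in tc;Sf1ESCs, 9.45 and 3.81 in SCLCs, and 78.8 and 69.2 in tod-PGCLCs. Both SCLC libraries were below the other 6. SCLCs had 17.3-fold less Fut9 than tc;Sf1ESCs (log2 fold change -4.11, SE 0.30, adjusted p = 2.90e-06, edgeR), or -4.89 without SCLC replicate 1, while tod-PGCLCs differed from tcESCs by 0.25 (SE 0.25, adjusted p = 0.397, edgeR). The study names SSEA1 in its description of sorting and CD49f, the product of Itga6, for the organoid sort, so which of them was used for these libraries is uncertain. Itga6 was at 276 and 265 normalized CPM in tcESCs and 216 and 170 in tod-PGCLCs, with a log2 difference of -0.49 (SE 0.13, adjusted p = 0.00984, edgeR), within the 2-fold limit.

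**Figure D2:**
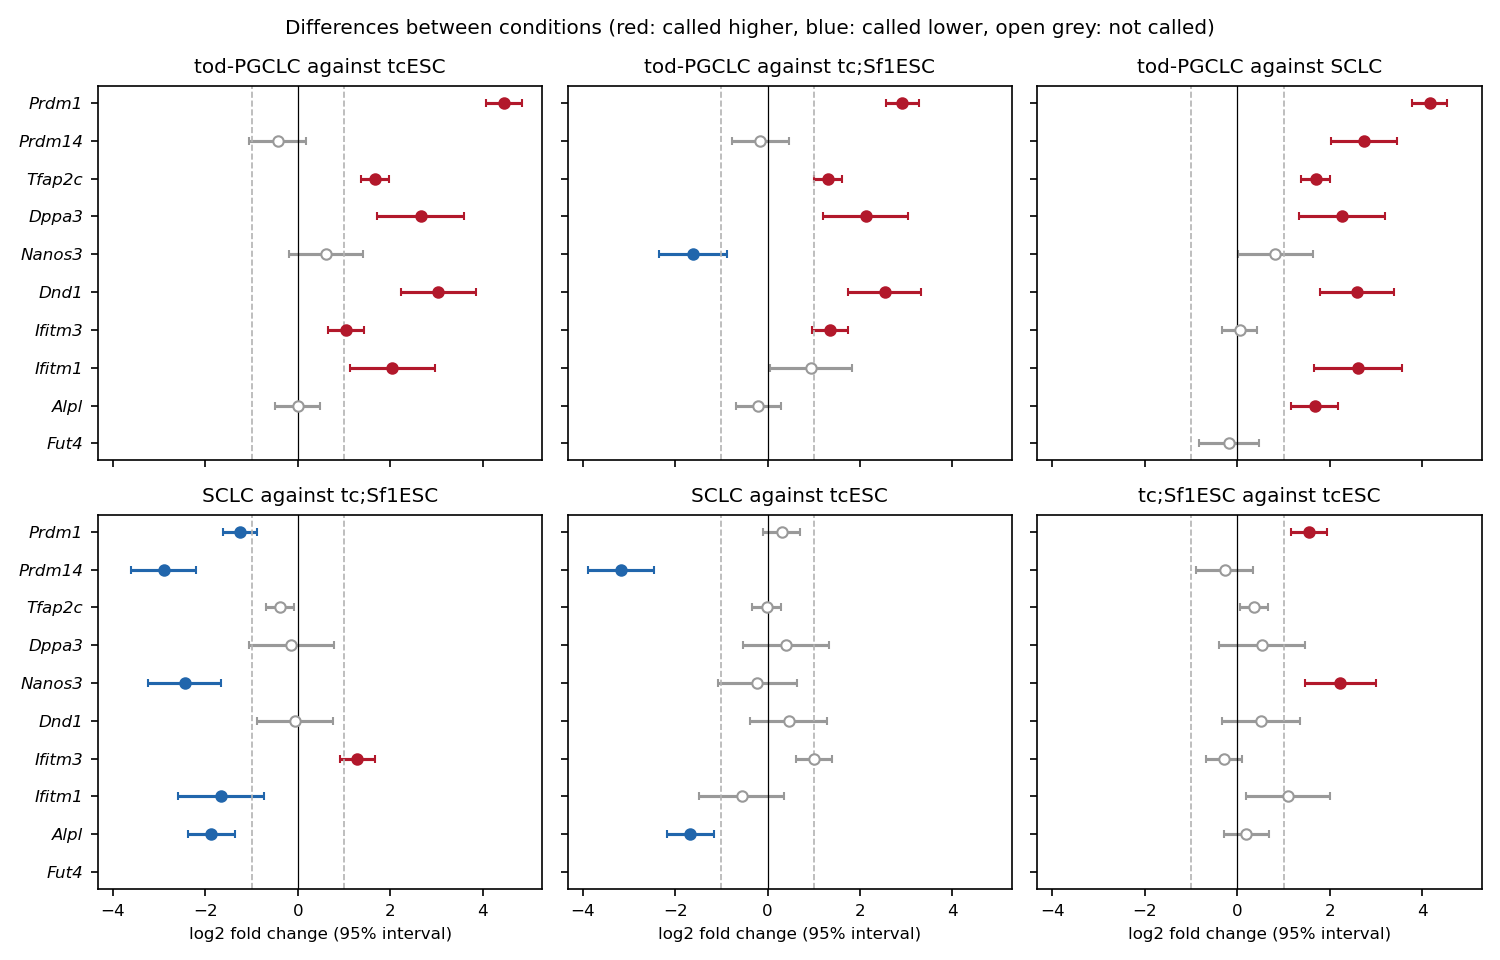
Log2 fold change of each factor with its 95% interval in the 6 comparisons. Filled red points were called higher, filled blue points lower and open grey points were not called, and dashed lines mark a 2-fold change. Fut4 is drawn for tod-PGCLCs against SCLCs alone, since the ESC libraries held 1 to 3 of its counts. The 3 comparisons of tod-PGCLCs have 1 blue point, Nanos3 at -1.62 against tc;Sf1ESCs.

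To compare levels between genes, normalized CPM was divided by the length of each gene's merged exons in kb. In tod-PGCLCs, Ifitm3 led with 431 normalized CPM per kb, followed by Ifitm1 (185), Dppa3 (179), Alpl (101), Tfap2c (52.4), Prdm1 (31.7), Dnd1 (19.2), Prdm14 (17.8), Nanos3 (3.23) and Fut4 (1.32). The ranges of Ifitm1 and Dppa3 overlapped, as did those of Dnd1 and Prdm14, and other neighbours in this order did not. In tcESCs the order was Ifitm3 (209), Alpl (101), Ifitm1 (44.8), Dppa3 (28.3), Prdm14 (24.1), Tfap2c (16.4), Dnd1 (2.32), Nanos3 (2.12), Prdm1 (1.44) and Fut4 (0.0217), where the ranges of Dnd1 and Nanos3 overlapped and those of other neighbours did not. Prdm1 thus stood ninth of the 10 in tcESCs and sixth in tod-PGCLCs per length. In SCLCs Ifitm3 led again at 417 normalized CPM per kb, and the next were Dppa3 (37.5), Alpl (31.7) and Ifitm1 (30.5), whose ranges overlapped.

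**Figure D3:**
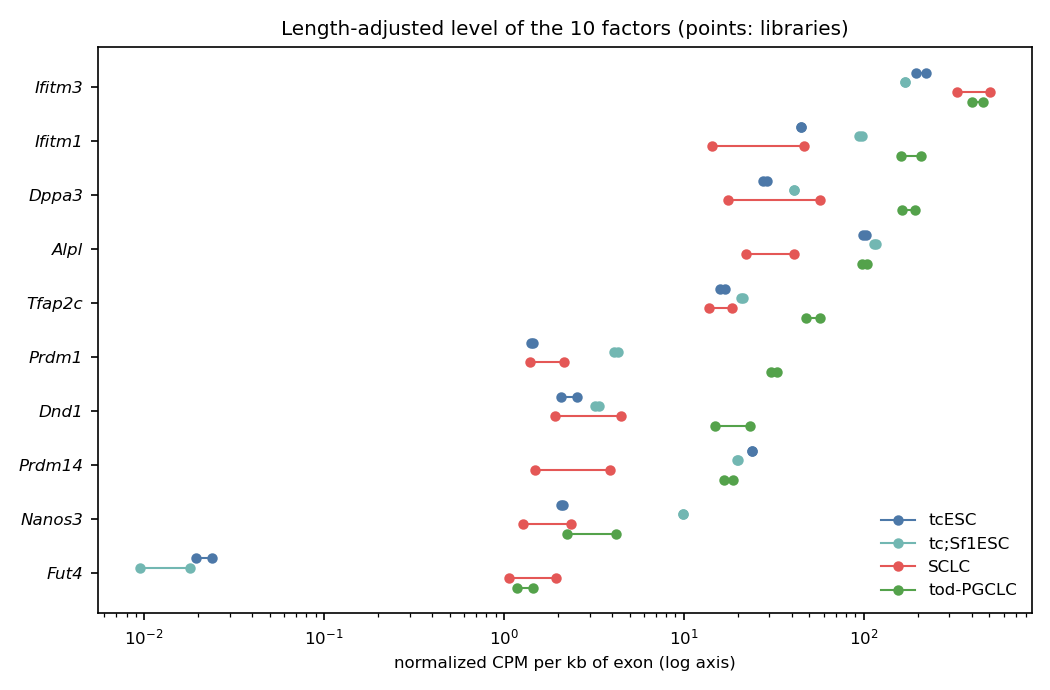
Normalized CPM per kb of exon (log axis) of the 10 factors, ordered from the highest to the lowest mean in tod-PGCLCs. Each point is a library and a line joins the 2 libraries of a condition. Ifitm3 has the highest mean in each condition and Fut4 the lowest. In SCLCs the Fut4 range overlaps those of Dnd1, Prdm14, Nanos3 and Prdm1, and in the ESC libraries Fut4 lies under 0.024.

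The SCLC libraries differed from each other for most factors. In replicate 1, 8 of the 10 factors were at least 1.5 times as high as in replicate 2, where 10.3% of all tested genes were. The ratio was 3.25 for Ifitm1, 3.23 for Dppa3, 2.62 for Prdm14, 2.34 for Dnd1, 1.85 for Nanos3, 1.84 for Alpl, 1.55 for Prdm1 and 1.51 for Ifitm3, against 0.744 for Tfap2c and 0.551 for Fut4. Of the 8 pluripotent cell markers, 6 were likewise at least 1.5 times as high in replicate 1, with 3.24 for Nanog and 2.88 for Sox2. Their summed level was 968 and 720 normalized CPM in the SCLC libraries and 4319 to 5633 in the other 6, and 0 of them were at 0. Of the 12 endoderm markers, 0 were that much higher in replicate 1 and 7 in replicate 2, where 8.17% of all tested genes were, with 0.397 for Ttr and 0.498 for Cubn. The part of the remaining pluripotent cell transcripts and of the endoderm transcripts in the SCLC values of the 10 factors was not tested.

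**Figure D4:**
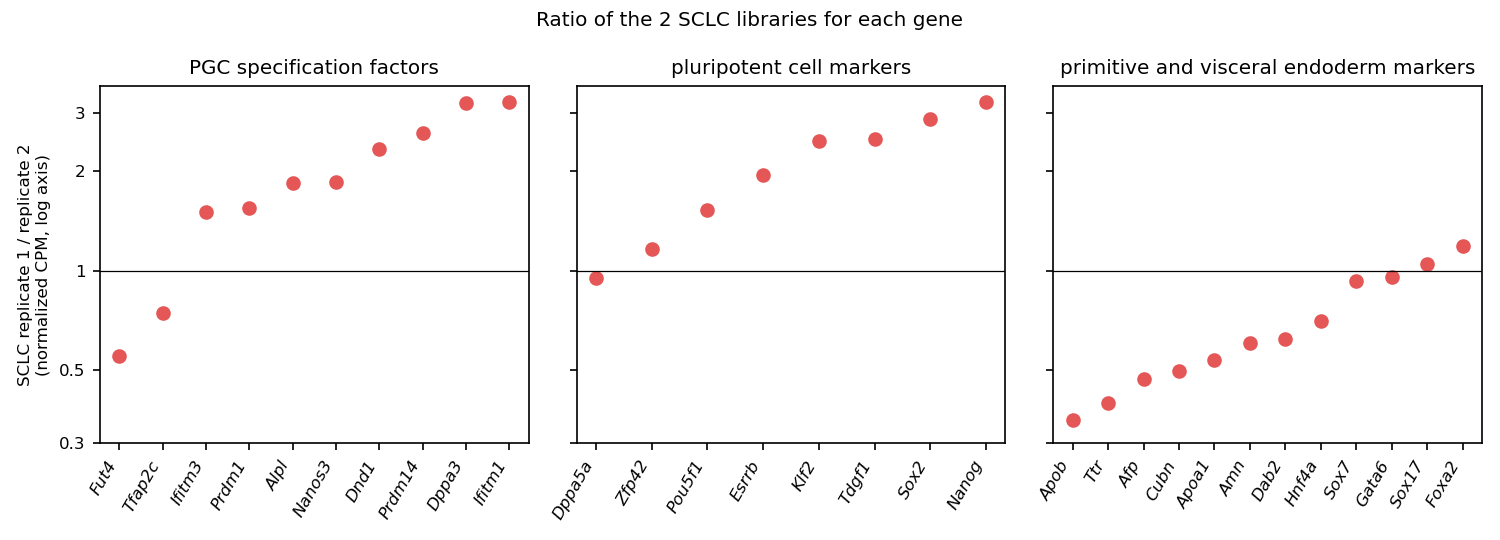
Ratio of normalized CPM in SCLC replicate 1 to replicate 2 (log axis) for the 10 PGC specification factors, 8 pluripotent cell markers and 12 markers of primitive and visceral endoderm. Each point is a gene and the line marks equal levels. Of the factors, Tfap2c at 0.744 and Fut4 at 0.551 lie below the line, and the endoderm markers reach down to 0.353 (Apob).

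The tod-PGCLC libraries were set against the same marker lists. Pluripotent cell markers summed to 4623 and 4319 normalized CPM there, and endoderm markers to 41.3 and 51.3 (17.5 to 20.5 in the ESC libraries). Mesenchyme markers summed to 49.1 and 47.2 (7.31 to 11.1 in the ESC libraries, 1202 and 1113 in SCLCs), trophectoderm markers to 139 and 168 (13.2 to 66.6 in the ESC libraries, 757 and 963 in SCLCs), and endothelium and blood markers to 4.76 and 4.0 (2.93 to 5.82 in the ESC libraries, 33.4 and 76.8 in SCLCs). Sertoli cell markers summed to 135 and 165 (18.6 to 23.7 in the ESC libraries), of which Dmrt1, a gene that germ cells use too, gave 94.9 and 116. The 8 germ cell markers, of which 5 are among the 10 factors, summed to 995 and 998 in tod-PGCLCs and to 430 to 582 in the other conditions. Among the other 3, Kit was at 249 and 245 normalized CPM in tod-PGCLCs and 214 and 202 in tcESCs (log2 difference 0.25, SE 0.10, adjusted p = 0.0649, edgeR), and Dazl at 185 and 99.3 against 172 and 191 (-0.35, SE 0.38, adjusted p = 0.451, edgeR). Ddx4 rose 2.08-fold over tcESCs (adjusted p = 9.73e-05, edgeR), with a log2 fold change of 1.06, or 0.99 and no call without tcESC replicate 2. Of the 8 germ cell markers, 5 were called higher than in tcESCs and 0 lower, where 18.1% of all genes were called higher and 11.2% lower. Among these 5, Prdm1 (the gene read out by the sort), Tfap2c, Dppa3 and Dnd1 are factors already counted, and the other is Ddx4. Ddx4 was at 30.6 and 28.3 normalized CPM in tod-PGCLCs and 30.3 and 25.1 in SCLCs, so these ranges overlapped. Kit was higher in SCLCs (361 and 284) than in tod-PGCLCs, and Dazl was lower (63.0 and 23.9). Markers of other cell types were also called higher in tod-PGCLCs than in tcESCs, namely 6 of 10 tested Sertoli cell markers, 7 of 12 endoderm markers (1 lower), 3 of 6 mesenchyme markers, 3 of 5 trophectoderm markers and 1 of 3 endothelium and blood markers (1 lower). Of the 8 pluripotent cell markers, 0 were called higher and 2 lower. The part of other cell types' RNA in the tod-PGCLC values was not tested.

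The genes around the factors were followed in 6 lists. Of all tested genes, 18.1% were called higher and 11.2% lower in tod-PGCLCs against tcESCs. In SCLCs against tc;Sf1ESCs these shares were 24.2% and 18.0%. Of 15 genes that signal upstream of PGC fate, 4 were called higher in tod-PGCLCs than in tcESCs and 0 lower, with a list median of 0.22 beside 0.034 for all genes. T (Brachyury), a mesodermal factor that WNT switches on, was at 1.46 and 1.53 normalized CPM in tcESCs and 9.88 and 25.6 in tod-PGCLCs (log2 fold change 3.56, SE 0.45, adjusted p = 0.000179, edgeR), or 2.73 without tod-PGCLC replicate 2. Bmp4, the main PGC-inducing ligand, was at 3.16 and 4.36 against 40.7 and 36.8 (log2 fold change 3.36, SE 0.17, adjusted p = 1.06e-06, edgeR). In SCLCs against tc;Sf1ESCs, 5 of the 15 were called higher and 2 lower (median 0.72). Bmp2, another BMP ligand, was at 32.8 and 36.2 normalized CPM in SCLCs against 0.894 and 0.512 (log2 fold change 5.62, SE 0.35), Id1, a target of BMP signals, rose by 2.78, and Bmp4 fell by 1.55 on the log2 scale. T had 2 and 7 counts in SCLCs against 227 and 286 in tc;Sf1ESCs, a ratio of 57.3 of tc;Sf1ESCs over SCLCs (exact 95% counting interval 30.0 to 126).

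Among 16 pluripotency genes and early companions of the factors, 2 were called higher and 3 lower in tod-PGCLCs than in tcESCs (median 0.009). Dppa4 and Tcl1 rose by 1.24 and 1.03 on the log2 scale, and Tcl1 was not called without tod-PGCLC replicate 1 (0.69), tcESC replicate 1 (0.95) or tcESC replicate 2 (1.01, adjusted p = 0.0854, edgeR). Tcl1 stood at 107 and 107 normalized CPM in tc;Sf1ESCs, above 79.5 and 52.0 in tod-PGCLCs. Dppa4 (64.1 and 61.8 in tc;Sf1ESCs) was below both tod-PGCLC libraries there. Tfcp2l1, a naive pluripotency factor, fell by 2.46 in tod-PGCLCs against tcESCs and Pou5f1 (Oct4) fell by 1.10. In SCLCs against tc;Sf1ESCs, 1 of the 16 was called higher (Lin28a, 1.28) and 11 lower (median -1.58), with Tfcp2l1 at -4.07 and Nanog at -3.90. Nanog was at -4.97 without SCLC replicate 1 and at -3.27 without replicate 2.

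Of 14 somatic and epiblast genes that PGCs are known to shut down, 13 were tested, and 7 were called higher and 4 lower in tod-PGCLCs than in tcESCs (median 1.98). The increases include epiblast genes, such as Otx2, at 3.0 and 2.76 normalized CPM in tcESCs and 74.5 and 62.0 in tod-PGCLCs (log2 fold change 4.57, SE 0.17, adjusted p = 3.57e-07, edgeR), and Fgf5, at 0.789 and 0.585 against 7.73 and 13.6 (3.96, SE 0.38, adjusted p = 3.53e-05, edgeR). The decreases include Evx1, a primitive streak gene (-3.53), and Myc (-1.74). The comparison is with naive ESCs and not with epiblast-like cells, which were not analysed here. In SCLCs against tc;Sf1ESCs, 5 were called higher and 5 lower (3 lower without tc;Sf1ESC replicate 2, median -0.35 with all libraries), with Snai1 at 3.24 and Uhrf1, a partner of maintenance DNA methylation, at -2.47. Evx1 had 3 counts over the SCLC libraries against 136 over the tc;Sf1ESC libraries, 45.6-fold more (95% counting interval 15.3 to 224). Hoxb1, another of the list, was at 0 in all 4 ESC libraries, and the medians were the same with it at the bound given by 3 counts.

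Of 12 later germ cell genes, 11 were tested, and 7 were called higher and 1 lower in tod-PGCLCs than in tcESCs (median 1.60). Mov10l1, a helicase of the piRNA pathway, rose by 2.54 (SE 0.35) and Rec8, a meiotic cohesin, by 2.31 (SE 0.16), while Hormad1, a protein of meiotic chromosome axes, fell by 2.19 (SE 0.37). Rec8 was at 61.3 and 59.5 normalized CPM in tc;Sf1ESCs and 58.5 and 81.1 in tod-PGCLCs, so these ranges overlapped. In tc;Sf1ESCs Mov10l1 (0.661 and 0.659) lay below, and Hormad1 (30.6 and 32.1) above, both tod-PGCLC libraries. In SCLCs against tc;Sf1ESCs, 6 of the 11 were called higher and 1 lower (median 1.08). Mov10l1 rose by 3.59 and Ddx4, the vasa helicase, by 3.23, from 2.84 and 3.04 normalized CPM to 30.3 and 25.1, while Hormad1 fell by 1.47. The Hormad1 difference was -2.33 without SCLC replicate 1 and -0.91, no longer called, without replicate 2. In the ESC comparison 6 of the 11 were called lower in tc;Sf1ESCs (median -1.83), so the SCLC differences start from levels under those of tcESCs. Against tcESCs, 3 were called higher in SCLCs and 3 lower, and without SCLC replicate 2 these counts were 5 and 2.

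Of 8 surface and migration genes, 3 were called higher and 2 lower in tod-PGCLCs than in tcESCs (median 0.59). The adhesion molecule Epcam rose by 1.36 and Pecam1 by 1.04, while the tetraspanin Cd9 fell by 1.51 and E-cadherin (Cdh1) fell by 1.41. Epcam was at 179 and 178 normalized CPM in tc;Sf1ESCs, above 169 and 168 in tod-PGCLCs. Pecam1 (98.1 and 91.7 in tc;Sf1ESCs) was below both tod-PGCLC libraries there. Pecam1 lost its call with each of the 4 libraries left out in turn (0.88 to 1.20), and when either tcESC library was left out 1 gene of the list rather than 3 was called higher. Pecam1 lies on chromosome 11, whose median log2 fold change was 0.52, and Cd9 and Evx1 lie on chromosome 6, with a median of -0.29. The part of these shifts in their values was not tested. Of the same 8 genes, SCLCs had 2 called higher than tc;Sf1ESCs, Cxcr4 (1.66) and Itgb1 (1.24), and 1 lower, Cdh1 (-1.08), with a median of 0.16. Without SCLC replicate 1, Cdh1 was at -0.81 and no longer called, and without replicate 2 Cxcr4 was at 1.02.

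Among 30 relatives of the 10 factors, 18 were tested, and 3 were called higher and 2 lower in tod-PGCLCs than in tcESCs (median 0.12). These counts lie near the shares of all genes, 18.1% and 11.2%. Tfap2a fell by 1.51 (SE 0.32) and Ifitm7 fell by 1.34 (SE 0.24). Ifitm2, which lies in the same cluster as Ifitm1 and Ifitm3, was at 181 and 208 normalized CPM in tcESCs and 202 and 230 in tod-PGCLCs (0.15, SE 0.34, adjusted p = 0.719, edgeR). Between SCLCs and tc;Sf1ESCs, 2 were called higher in SCLCs, Prdm6 (4.01) and Prdm9 (2.57), and 9 lower (median -1.11), with the lowest values for Ifitm7 and Fut9. Ifitm7 had 3 counts over the SCLC libraries against 74 over the tc;Sf1ESC libraries, 24.8-fold more (95% counting interval 8.16 to 123).

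**Figure D5:**
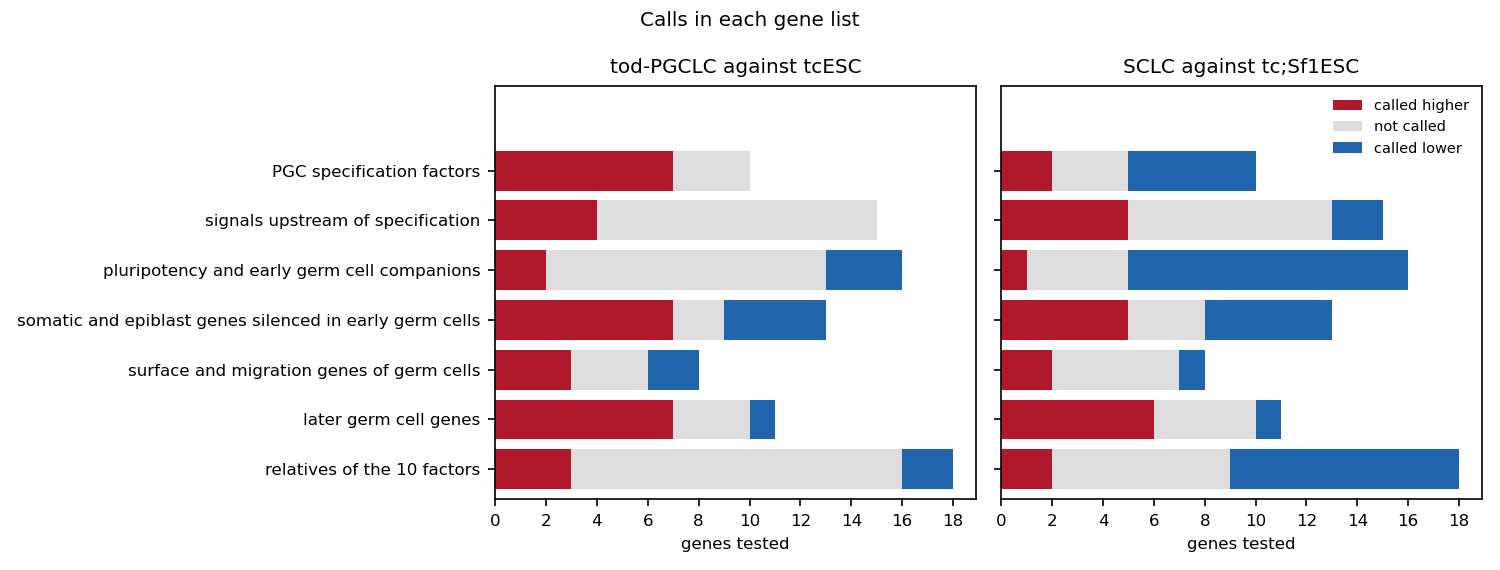
Number of tested genes called higher (red), not called (grey) and called lower (blue) in the set of 10 factors and in 6 lists of related genes. In tod-PGCLCs against tcESCs the factors show 7 higher and 0 lower, and in SCLCs against tc;Sf1ESCs they show 2 higher and 5 lower.

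The genes whose log2 CPM over the 8 libraries was most like that of each factor were found among genes of at least 5 CPM. Prdm14 was followed most closely by Nanog, with a Pearson correlation of 0.999. For other factors, the most alike were Pde7a for Prdm1 (0.996), Cog1 for Tfap2c (0.988), Eif2a for Nanos3 (0.995), H2-Bl for Dnd1 (0.991), Pbx2 for Ifitm3 (0.991), Sh3gl3 for Alpl (0.996) and Car4 for Fut4 (0.997). Dusp6, which encodes an ERK phosphatase, was among the 3 most alike for both Dppa3 (0.989) and Dnd1 (0.991). These values describe 8 libraries that fall into 4 pairs with the same line and culture within each pair, and were not tested.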

How the data were processed

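RNA was measured in 8 libraries, 2 in each of 4 groups taken from the sample labels. Per the labels and the study's methods, the authors trimmed reads with Trim Galore and aligned them to GRCm38 with STAR 2.4.0, and they deposited raw counts per Ensembl gene, without normalization (the submitters' processing notes also name HTSeq and Picard). Rows that name no gene held 35.6% to 41.6% of each library's reads and were left out. These include reads that did not align uniquely, so genes with near-identical copies can be undercounted. Of 46078 IDs, 45229 were named with GENCODE M21, which also gave coordinates and exon lengths, and promoter sequences are RefSeq's (GRCm38.p6).

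Counts were fitted in R 4.3.3 with edgeR 4.0.16 (TMM, quasi-likelihood, all 8 libraries in 1 fit of 4 groups, 16707 genes with a mean count above 10), beside limma 3.58.1 and DESeq2 1.42.0, and the tests were tested on simulated data. The limits of a 2-fold change, an adjusted p under 0.05 and more than 10 counts follow the study's methods. SE and 95% intervals come from the quasi-likelihood F statistic. The 10 factors, the 6 lists of related genes and the 7 marker lists were chosen with earlier results of these data known. Named were all 10 factors, for tod-PGCLCs against tcESCs and SCLCs against tc;Sf1ESCs the 2 largest called increases and decreases of each related list with a mean of at least 1 CPM, and the 3 genes most like each factor (log2 CPM, prior count 2, at least 5 CPM). Outside this rule, Fut9 and Ddx4 in tod-PGCLCs, Itga6, Kit, Dazl, Hoxb1, Ifitm2 and single genes of the marker lists were named after their values were seen. Some results that the rule names are not reported here. Alternative settings comprised DESeq2, RLE size factors, scaling to library totals alone, no count filter beyond 1 count, edgeR's glmTreat against a 2-fold change, a replicate block, a fit of only the 4 libraries compared, and removal of each library.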

Additional observations from a re-analysis of the deposited data

How the results depend on the processing

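For single factors, 640 of the alternative values kept the side of the call, 10 gained a call and 9 lost it; 13 of the 659 changed sign, and 0 of these were called. Against a 2-fold change, 4 factors rather than 7 were called between SCLCs and tc;Sf1ESCs (1 higher, 3 lower), with Prdm1, Ifitm3 and Ifitm1 lost, beside 5368 of all 16707 genes (3182 higher, 2186 lower); Ifitm3 was also lost in tod-PGCLCs against tcESCs and Nanos3 in tod-PGCLCs against tc;Sf1ESCs (adjusted p = 0.613 and 0.0555, edgeR's glmTreat). Under that test the called genes overall fell from 4906 to 3078 in tod-PGCLCs against tcESCs and from 2002 to 624 between the ESC lines. Leaving out each library in turn gave 6 to 7 factors called in tod-PGCLCs against tcESCs, 7 in each case against tc;Sf1ESCs, 7 to 8 against SCLCs, 6 to 7 in SCLCs against tc;Sf1ESCs, 3 to 5 in SCLCs against tcESCs, where 5 came without SCLC replicate 2 (the cause was not tested), and 2 to 3 between the ESC lines. Where this left 1 library in a group, it was assumed to vary like the other groups.

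With the replicate number as a block, the factors called were 7, 7, 7, 7, 3 and 2 in the same 6 comparisons, the numbers found without it. The correlation of same-numbered deviations was -0.0259 to 0.0624. With 2 libraries per group it cannot show whether same-numbered libraries were prepared together. Scaling by library totals moved the median log2 fold change of all genes in tod-PGCLCs against SCLCs from 0.012 to 0.15. Under that scaling Ifitm1 was called in tod-PGCLCs against tc;Sf1ESCs (1.03), and with every gene kept or with only the 4 libraries fitted it was called between the ESC lines (1.08 and 1.10). Depth limits Fut4 in the ESC lines, and 2 libraries per group limit each interval.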
